A study of Pimephales promelas and Coturnix japonica and Xenopus laevis with 724 samples.

Results

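The identifiers described here are the 150 that were abundant in the control animals of every species and life stage in an RNA sequencing study of 6 vertebrate species. They were chosen by their control values in 8 tables: counts were scaled to CPM (the count of an identifier per 1000000 counts of its library), averaged over the control libraries of each benzo[a]pyrene table, and ranked by the lowest of the 8 means. The 8 tables held 11900 identifiers in common, and all tables together held 42403. The control levels that follow from these tables are therefore a description of the choice. Control libraries of 31 other tables, and the changes under exposure, were not used to choose the members.

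Transcripts that are abundant in every tissue usually belong to the shared machinery of cells, such as ribosomes, translation factors, the cytoskeleton and energy metabolism. Such genes are often taken as reference genes in exposure work, where a reference is useful only if its level differs little between libraries and does not follow the treatment. No gene name accompanies an s2f identifier in the files. None of the 42403 was found among the 64593 minnow genes of the reference table (0 matches), so no role, sequence or marker gene could be attached to a member. Levels are shares of reads and are not corrected for transcript length.

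The study exposed Japanese quail, double-crested cormorant, fathead minnow, rainbow trout, northern leopard frog and African clawed frog to 8 chemicals. The chemicals are benzo[a]pyrene (a combustion product), chlorpyrifos (an insecticide), ethinylestradiol (a synthetic oestrogen), fluoxetine (an antidepressant), hexabromocyclododecane (HBCD, a flame retardant), lead, selenomethionine (organic selenium) and trenbolone (a synthetic androgen). Liver was sequenced from early-life cormorant, from adult and early-life quail and from adult minnow, and whole embryos were sequenced from minnow, leopard frog, trout and clawed frog. Each of these 8 species and stage sets has a table for each chemical tested in it, and every table used here has its own control group, which the labels mark CTRL with the chemical given as dmso (a solvent). Levels are named MED and HIGH in most tables, LOW in a few, and by numbers without a unit in 2 trout tables, where D81 (benzo[a]pyrene) and D125 (fluoxetine) are the highest. The minnow embryo ethinylestradiol and fluoxetine tables hold numbered levels beside MED and HIGH, and the numbered libraries entered no test. HIGH was taken as the highest level there and was not ranked against the numbered levels. Levels follow the concentration label: in minnow embryo HBCD and in leopard frog and clawed frog benzo[a]pyrene, libraries labelled HIGH have titles with M, and those labelled MED have titles with L. The labels give no strain, sex, age in days or pooling. Nothing says whether replicate libraries stand for separate animals, so p-values cover the variation among libraries, part of which may be technical. Bulk tissue cannot tell fewer cells of a type from less RNA per cell.

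The 39 tables with labelled controls hold 624 libraries, with total counts from 4066220 to 69838406. All 150 members passed the filter on low counts in all 39 tables, and the smallest count of a member in a control library of the 8 tables was 831. In the lead table of the clawed frog, controls 3 and 3.1 were closer to each other than any other of 1196 pairs within a group, at a chi-square per degree of freedom of 1.30 where the next pair had 2.77. They were summed and counted as 1 library. Library A of the HIGH group in the minnow embryo benzo[a]pyrene table stood apart: the members took 31.9% of its counts, against 15.8% to 18.6% in the other 4 HIGH libraries and 15.7% to 17.2% in the 5 controls. In that library 141 of the 150 members (94%) were above every control after TMM scaling, as were 40.6% of the 17137 identifiers tested. HIGH E went part of the way, with 93 members (62%) above every control, beside 27.5% of all identifiers. In HIGH B, C and D the members' share above every control was 6% to 9.33%, beside 16.6% to 18.5% of all. The clawed frog ethinylestradiol controls were also wide, with the members taking between 25.02% and 37.02% of the counts.

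The member of rank 1, s2f_0006541002, had no control mean below 2609 CPM in any set. The trout benzo[a]pyrene controls are 4 libraries with S in the title and 3 with C, all labelled CTRL and taken as 1 group. In these 7 trout libraries it lay between 2479 and 2741 CPM with a median of 2607. In adult minnow liver the 5 controls ran from 2324 to 4006 CPM, with a mean of 2775 ± 713 (SD, n = 5). The highest set was leopard frog embryo, at 12136 to 15277 CPM with a median of 14286. Trout and adult minnow overlapped at the low end. The leopard frog libraries overlapped with those of adult quail liver, which ran from 8214 to 14164 CPM.

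The next ranks were held by s2f_0000500001, s2f_0006556002, s2f_0000548005 and s2f_0000288012. The lowest of the 8 means of s2f_0000500001 was 2181 ± 358 CPM (SD, n = 5) in adult quail liver, and its highest was 10109 ± 254 CPM (SD, n = 5) in clawed frog embryo. For s2f_0006556002 the extremes were adult minnow liver, at 1391 ± 337 CPM (SD, n = 5), and adult quail liver, at 8765 ± 1895 CPM (SD, n = 5). s2f_0000548005 was lowest in minnow embryo, at 1351 ± 173 CPM (SD, n = 5), and highest in early-life quail liver, at 12801 ± 1097 CPM (SD, n = 5). s2f_0000288012 went from 1249 ± 226 CPM in adult minnow liver to 13558 ± 266 CPM in clawed frog embryo (SD, n = 5 each). In each of these 4 identifiers, all control libraries of the lowest set were below all of the highest set.

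At the other end, rank 150 was s2f_0002352003, with a lowest mean of 110 CPM in trout embryo. The first identifier outside was s2f_0000441007, at 109 CPM in adult minnow liver. The adult minnow libraries of the latter ran from 55.2 to 199 CPM, so the border between inside and outside lies within the spread of single libraries. The median of the ranking value over the 150 members was 272 CPM.

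**Figure D1:**
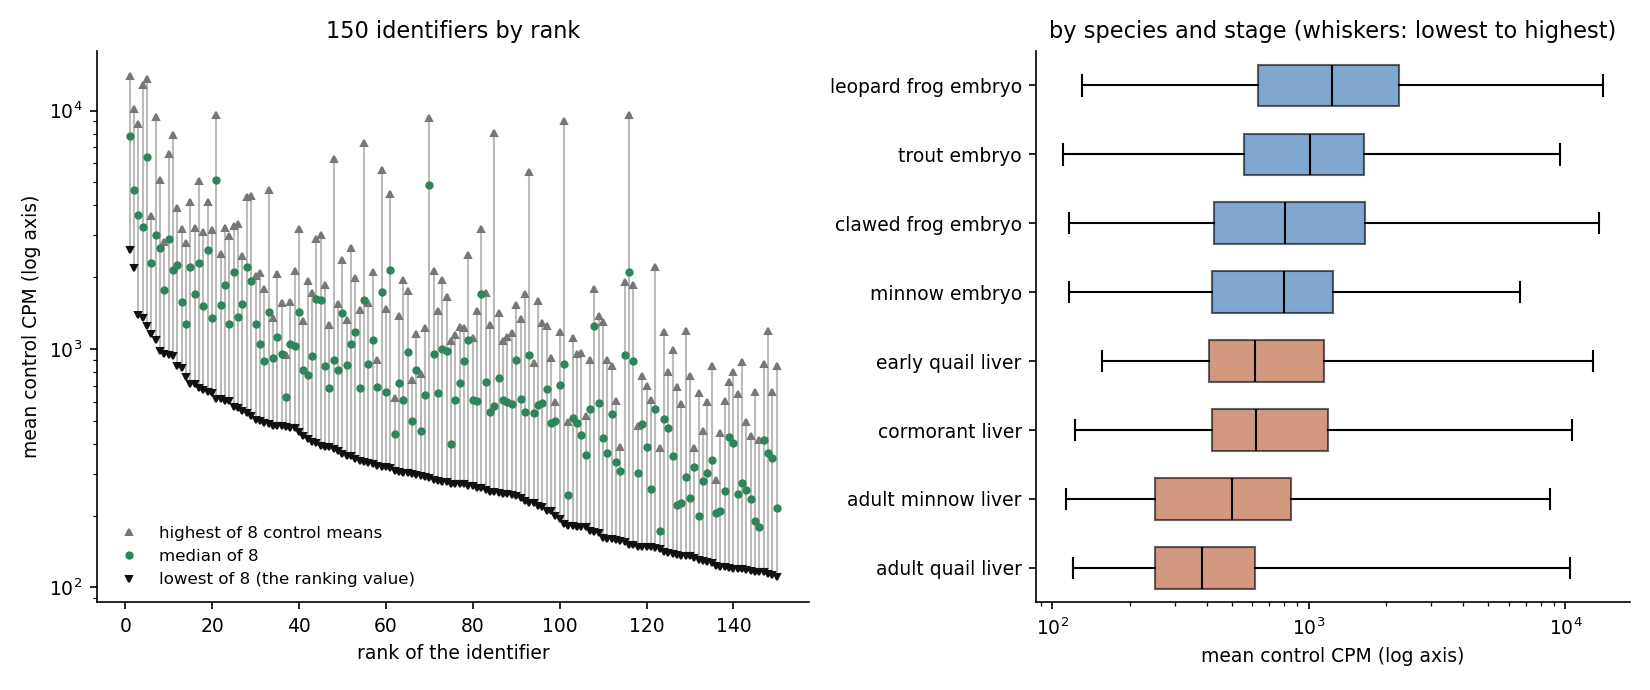
Left, for each of the 150 identifiers by rank, the lowest, the median and the highest of the 8 control means in CPM on a log axis; right, the control means by species and stage set (boxes: quartiles and median; whiskers: lowest to highest; blue: embryos; orange: livers). The ranking value falls from 2609 to 110 CPM, and the highest of the 8 means lies 2.002 to 63.2 times above the lowest.

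The members were not the most abundant identifiers of each table. Their median control level was 383 CPM in adult quail liver, 500 in adult minnow liver, 617 in early-life quail liver and 619 in cormorant liver. It was 799 CPM in minnow embryo, 809 in clawed frog, 1013 in trout and 1232 in leopard frog embryo. Of the 150, only 30 were among the 150 most abundant identifiers of adult quail liver, against 92 in leopard frog embryo, with 56 to 85 in the other 6 sets. The lowest of the 8 means lay in adult quail liver for 83 members and in adult minnow liver for 36. The highest lay in leopard frog embryo for 75 and in trout embryo for 30.

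The 8 sets had 5 leading members among them. s2f_0000288012 led in cormorant liver and in clawed frog embryo, s2f_0006541002 in adult quail liver and leopard frog embryo, and s2f_0000548005 in early-life quail liver. s2f_0000288006, of rank 116, led in minnow embryo at 6664 CPM and in trout embryo at 9546 CPM, while its mean in the 3 bird liver sets was 150.97 to 236.6 CPM. Its ratio of highest to lowest mean, 63.2, was the largest of the 150. s2f_0000770004, of rank 70, led in adult minnow liver at 8668 ± 3364 CPM (SD, n = 5), a level with a wide spread over libraries of 4731 to 12231 CPM, and was at 287 CPM in trout embryo. The smallest ratio, 2.002, belonged to s2f_0001253002 of rank 37, whose means ran from 470 CPM in trout to 942 CPM in cormorant. Over all members the ratio had a median of 5.30, was under 4 for 32 and was over 20 for 6.

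Taken as a sum, the members held a median of 11.1% of the control counts in adult minnow liver, 13.4% in adult quail liver, 17.9% in early-life quail liver and 18.0% in cormorant liver. In embryos they held 16.2% (minnow), 20.6% (clawed frog), 20.9% (trout) and 27.02% (leopard frog). Single control libraries of these tables went from 8.85% to 14.0% in adult minnow, and from 26.3% to 27.7% in leopard frog, so those sets did not overlap. The 150 most abundant identifiers of each table, whatever they were, held 80.4% of the counts in adult minnow liver and 63.7% in adult quail liver, against 37.7% to 51.4% in the other 6 sets. When the total was taken only over the 11900 shared identifiers, the members' share in adult minnow liver became 30.4%, close to the 30.6% of leopard frog embryo, and the order of the sets changed.

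How many members separated embryos from livers changed with the scale. Of the 4 liver sets 3 are from birds, and all 4 embryo sets are from fish or frogs. Tissue, stage and animal class therefore cannot be told apart here. In CPM of the controls that chose the members, 76 members (50.7%) were higher in all 4 embryo sets than in all 4 liver sets, a description. The share was 18.0% over all shared identifiers. Another 3 members (2%) were higher in all liver sets, against 1.08%. In controls the rule did not use, 71 members were higher in all embryo sets, 68 of the 76 among them. There 8 were higher in all liver sets, the same 3 among them. The share of all shared identifiers was not counted in those controls. When each level was taken relative to the median member of its set, an alternative added after the data were seen, 5 members (3.33%) were higher in all embryos and 11 (7.33%) in all livers, beside 7.79% and 5.18% of all shared identifiers on the same scale.

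The order of the members was alike among embryos and among the bird livers. Spearman's correlation of member levels, across the 150 identifiers, was 0.825 to 0.899 over the 6 pairs of embryo sets, with clawed frog and minnow the closest. It was 0.443 to 0.880 over the 6 pairs of liver sets, where adult and early-life quail gave the highest value and adult minnow and adult quail the lowest. Pairs of bird livers gave 0.790 to 0.880, and adult minnow with a bird liver gave 0.443 to 0.560. Between livers and embryos the correlation ran from 0.360 (adult quail and trout) to 0.843 (adult and embryonic minnow) over 16 pairs. Over all 11900 shared identifiers, pairs of bird livers gave 0.815 to 0.913 and pairs of embryos 0.526 to 0.844. Identifiers are not independent, and the members were chosen to be abundant in all sets, so these values are a description.

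**Figure D2:**
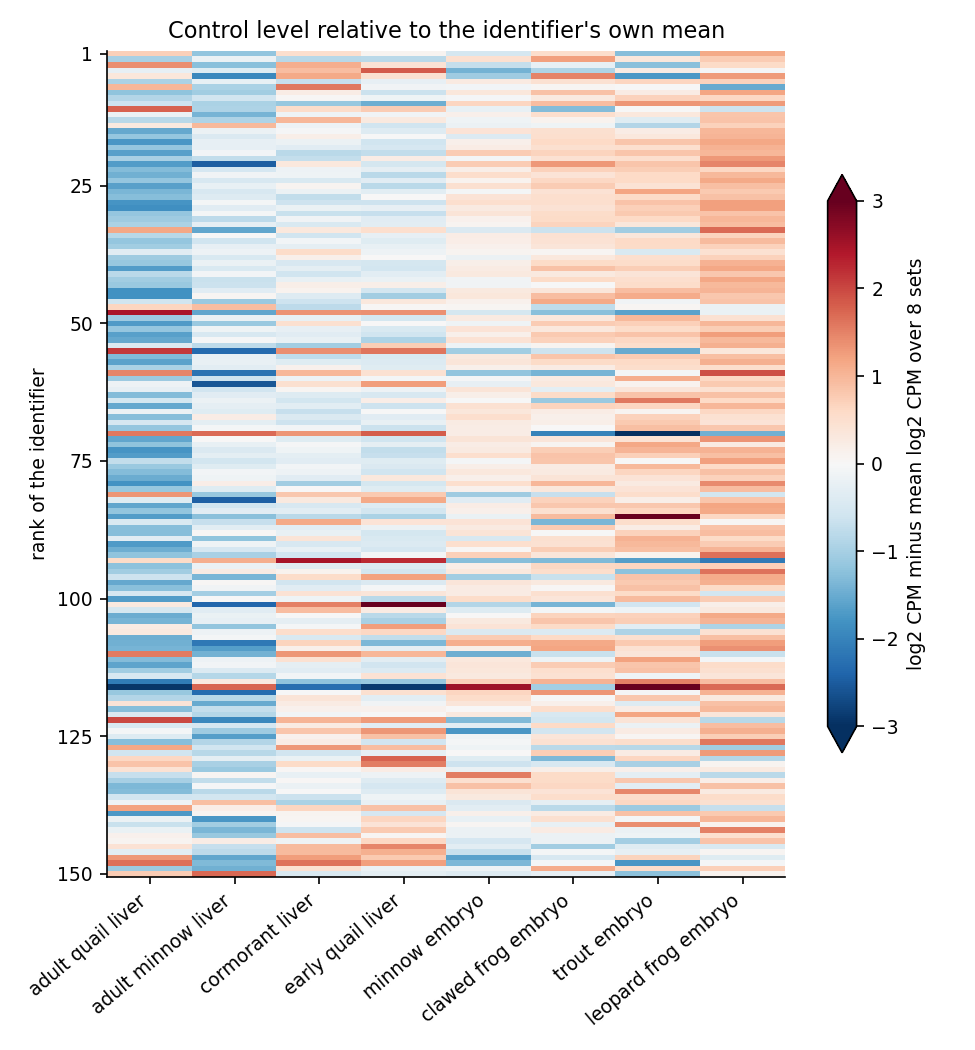
Control level of each of the 150 identifiers (rows, by rank) in the 8 species and stage sets (columns, livers left, embryos right), as log2 CPM minus the identifier's mean over the sets. Adult quail liver is below the mean for most rows and leopard frog embryo above it. Rank 116 spans the widest range, from adult quail, its lowest set, to trout, its highest.

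A like rule was applied to the 150 control libraries of the 31 tables that had no part in the choice. Candidates were still limited to the 11900 identifiers common to the 8 benzo[a]pyrene tables. Control means of single tables were averaged within each species and stage set before ranking. Of the 150 members, 128 were again among the first 150 of 10835 ranked identifiers, 145 among the first 200 and all among the first 500, with 418 as the worst rank. The first 3 ranks were held by the same 3 identifiers in the same order. Members were within 2-fold of their first control mean in 148 to 150 cases in 7 sets. The exception was adult minnow liver, with 122, where the median member was 0.39 higher on the log2 scale in the 20 other control libraries. There the share of counts taken by the members also differed between tables: the control median was 10.1% in the trenbolone table, 11.1% with benzo[a]pyrene and 16.3% to 18.6% in the other 3. Control medians differed between tables in the embryo sets too. They ran from 15.8% to 22.4% in minnow, 16.9% to 20.9% in trout, 24.1% to 29.9% in leopard frog and 20.6% to 31.5% in clawed frog. The bird livers were closer, at 18.0% to 19.4% (cormorant), 13.4% to 15.5% (adult quail) and 16.4% to 17.9% (early-life quail). Averaging within a set can hide such differences between its tables.

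The members varied little between control libraries in most tables, though not in all. With counts scaled by TMM factors (a library scaling that trims extreme identifiers), the median coefficient of variation (CV, the SD over the mean) of the members was 3.13% in the minnow embryo selenomethionine controls (n = 4), against 10.7% for all identifiers tested there. In the 31 tables whose controls the rule did not use, it was below the median of all identifiers in 28. Over those tables its median was 12.6%, beside 15.8% for all identifiers and 11.1% for other identifiers at least as abundant as the lowest member. Against those abundant others the members had the lower CV in 19 of the 31 tables, and in 25 with CPM by column total. In the 8 tables that chose the members the counts were 7 below all identifiers and 6 below the abundant others, a description.

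The 4 tables in which the members varied more than all identifiers were the 3 cormorant tables and clawed frog with ethinylestradiol. In the cormorant controls the members' median CV was 29.6% against 25.05% with benzo[a]pyrene, 29.1% against 20.9% with chlorpyrifos and 20.5% against 19.6% with fluoxetine. In the clawed frog ethinylestradiol controls it was 35.2% against 28.1%, in the group whose member share ran from 25.02% to 37.02%. With CPM by column total in place of TMM scaling, the members were below all identifiers in all 39 tables. Their CV in the cormorant benzo[a]pyrene controls was then 12.7%. Under TMM scaling it was 11.2% without control 2, against 15.3% for all identifiers, so the members' higher value in this table rests on that library. It was up to 34.2% when another of the 5 controls was left out, against 26.7% for all identifiers in that case.

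Single members differed widely in spread. The median CV over the 39 tables was 7.13% for the steadiest member, s2f_0000299003, and 34.8% for the least steady, s2f_0021347001, both named after their values were seen. The quartiles were 10.01% and 12.9%, and 4 members exceeded 20%. s2f_0019678001, of rank 122, was the most variable member in 8 tables and s2f_0021347001, of rank 147, in 6. Rank and spread were nearly unrelated (Spearman's correlation of 0.04 across 150 members, a description).

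The response to exposure was read at the highest level of each table against its controls, with edgeR's quasi-likelihood test on the whole table and Benjamini-Hochberg adjusted p below 0.05 as the call. Over the 31 tables whose controls the rule did not use, 31 of 4650 member tests were called, or 0.667%, beside a background of 0.710% of all tests. With the replicate as a block the shares were 1.74% and 1.28%. In DESeq2, run without the low-count filter, they were 3.23% of member tests and 0.849% of all. Of its 150 member calls, 68 were in leopard frog embryo with chlorpyrifos. With edgeR and no filter the shares were 0.968% and 0.520%. The members' share thus stood near the background in filtered edgeR without the block and above it in these other fits. Minnow embryos with lead gave 14 of the 31 filtered edgeR member calls and 2203 of the 3314 calls over all identifiers. That table therefore weighs heavily in both pooled shares, and shares without it were not counted. Backgrounds with and without the filter are not alike, since low-count identifiers enter only the latter. In DESeq2 its own default filter can leave low-count identifiers with no adjusted p. Those could not be called but were counted among all tests, which lowers that background. Of the 31 edgeR calls 28 were higher than in controls (90.3%), against 59.8% of the 3314 calls over all identifiers. Of these 28, 14 were in minnow embryos with lead and 7 in trout embryos with ethinylestradiol. In those comparisons 133 and 143 of the 150 members were above 0, so these calls are not separate outcomes and the 90.3% is a description. In the 8 benzo[a]pyrene tables, whose controls chose the members, the calls are a description and support nothing: 19 of 1200 member tests were called (1.58%) with a background of 3.06%. At levels below the highest, 3 of 5550 member tests were called over 37 comparisons of the 31 tables (0.0541%, background 0.159%). With benzo[a]pyrene these levels had 5 of 1650 member tests called over 11 comparisons (0.303%, background 0.321%), a description.

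In the comparisons of those 31 tables, 127 of the 150 members were never called at the highest level, 18 were called in 1 comparison, 3 in 2, 1 in 3 and 1 in 4. How often each of all identifiers was called was not counted, so these numbers have no background and are a description. The 31 calls lay in 7 comparisons and had a median size of 0.40 on the log2 scale. Of these, 5 passed 2-fold. In the 20 of these comparisons with under 10 calls over all identifiers (background 0.00447%), edgeR called 0 of 3000 member tests. An unadjusted p below 0.05 was found in 7.4% of the member tests, beside 6.77% of all tests, and DESeq2 called 69 (2.3%, beside 0.190% of all). Of those 69, 68 were in leopard frog embryo with chlorpyrifos (45.3% of members, beside 1.85% of all identifiers). There 102 members (68%) had an unadjusted p below 0.05 in edgeR, as did 14.8% of all identifiers, and the members' median difference was 0.27 on the log2 scale. There the members took 22.5% to 26.8% of the counts in controls and 26.2% to 28.0% in HIGH libraries.

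Minnow embryos with lead gave the most member calls of the 31 tables in edgeR, though not in DESeq2 (34, against 68 in leopard frog with chlorpyrifos) or without the low-count filter (9, against 24 in trout with ethinylestradiol). All 14 called members rose (9.33% of members), while 12.6% of all identifiers were called and 6.69% were called higher. Same-numbered libraries deviated together in this table, and a fit with the replicate as a block called 36 members (24%) where it called 22.0% of all identifiers. The count was unstable: it became 4 without control F, HIGH A or HIGH E, 5 without control E or HIGH B, and 6 without control A or HIGH C. It became 29 without control B and 25 without HIGH F, while 8.52% to 11.3% of all identifiers were called in these refits. The members' summed share was 15.8% to 17.3% in the 5 controls and 17.3% to 18.3% in the 5 HIGH libraries, and the 2 groups met without overlapping (17.26% and 17.28% at the border). It is the only table of 39 in which the share was higher in every HIGH library than in every control.

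The benzo[a]pyrene comparisons use the controls that chose the members, so their counts are given as description. In clawed frog 14 members were called, all higher (9.33%), beside 20.1% of all identifiers called and 11% called higher. Without control 5 the count was 8, beside 2644 of all 15832 identifiers. The members' median difference was 0.01 on the log2 scale and 87 of 150 were above 0. In trout with benzo[a]pyrene, edgeR and DESeq2 called 0 members at D81 (background 0.274%), and 6 (4%) had an unadjusted p below 0.05, beside 5.65% of all identifiers. In minnow embryos 5 members were called, all higher (3.33%, background 1.65%, and 1.57% higher). The members' median difference there was 0.57 on the log2 scale, with 135 of 150 above 0. Without HIGH A, the library that stood apart, the median became −0.06 and 35 were above 0. In that refit 7 members were called, beside 443 of all 17246 identifiers (2.57%).

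In trout embryos with ethinylestradiol 8 members were called (5.33%), 7 higher and 1 lower, where the background was 1.38% in either direction and 1% higher. The groups had 3 libraries each. The count was 1 without control A (beside 51 of all 16076 identifiers) or control B (61 of 16098). It was 2 without HIGH C (111 of 16154) and 5 without HIGH B (98 of 16074). A positive difference was seen for 143 of 150 members, with a median of 0.26 on the log2 scale against −0.01 for all 15940 identifiers, while the summed share overlapped (20.1% to 20.5% in controls and 20.4% to 22.4% in HIGH libraries).

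The remaining calls were few, and the shares of all identifiers called in their refits are given at the end. Clawed frog embryos with lead had 3 members called higher (2%, background 1.82%), and 1 without HIGH 3. Trout embryos with selenomethionine had 2 higher and 1 lower (2%, background 0.878%), and 1 call without HIGH B or without HIGH C. Clawed frog with HBCD had 1 lower (0.667%, background 0.780%). Minnow embryos with selenomethionine had 1 higher (0.667%, background 0.672%), lost without control B, control D, HIGH C or HIGH D; without HIGH A the only member called was lower. Adult minnow liver with ethinylestradiol had 1 higher (0.667%, background 0.178%), lost without control A, B or E.

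Of the comparisons with at least 10 calls over all identifiers, 4 more had no member called by edgeR. In early-life quail liver with ethinylestradiol (background 0.962%) 4 members (2.67%) had an unadjusted p below 0.05, beside 10.3% of all identifiers, and DESeq2 called 0, beside 1.14% of all. In minnow embryos with HBCD (background 0.139%) 32 members (21.3%, beside 6.43%) had such a p, and DESeq2 called 1 (0.399% of all). In minnow embryos with ethinylestradiol (background 0.0894%) the p was below 0.05 for 71 members (47.3%, beside 11.6%), and DESeq2 called 0 (0.112% of all). In clawed frog with selenomethionine (background 0.0951%) it was for 18 members (12%, beside 8.79%), and DESeq2 called 4 (0.512% of all).

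**Figure D3:**
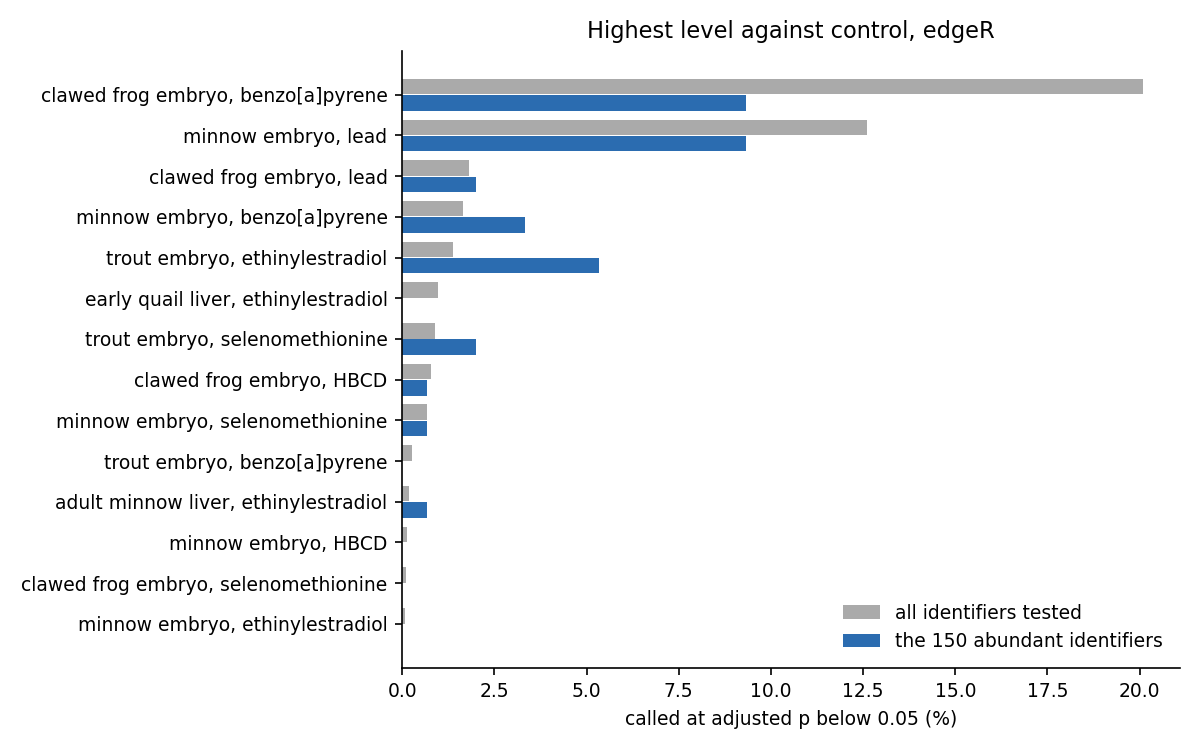
Percent of the 150 abundant identifiers (blue) and of all identifiers tested (grey) called at an adjusted p below 0.05 at the highest level, in the 14 comparisons with at least 10 calls, of which the 3 with benzo[a]pyrene use the controls that chose the members. The blue bar is the shorter in clawed frog with benzo[a]pyrene (9.33% against 20.1%) and minnow with lead (9.33% against 12.6%). It is slightly shorter in clawed frog with HBCD and minnow embryo with selenomethionine. It is the longer in trout with ethinylestradiol (5.33% against 1.38%) or selenomethionine (2% against 0.878%) and in minnow embryo with benzo[a]pyrene (3.33% against 1.65%). It is also longer in adult minnow with ethinylestradiol (0.667% against 0.178%) and clawed frog with lead (2% against 1.82%). In the other 5 no member was called.

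The member called higher most often was s2f_0000398005, of rank 110, which was called higher in 5 comparisons, 4 of them outside the benzo[a]pyrene tables. Over all 39 comparisons its difference was positive in 25 and negative in 14, with a median of 0.12 on the log2 scale and a range of −0.69 to 1.83. In trout embryos with ethinylestradiol its normalised counts (TMM-scaled CPM) were 313, 316 and 330 in controls and 710, 511 and 553 in HIGH libraries, so the groups were far apart. The log2 fold change was 0.89 ± 0.13 (SE, edgeR adjusted p = 0.00163). In clawed frog with benzo[a]pyrene the 5 controls held 260, 263, 299, 266 and 300 and the 5 HIGH libraries 481, 562, 573, 453 and 515, again without overlap. Those controls chose the members, so this is a description with no test.

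The same identifier rose with lead in both embryo tables that tested it. In clawed frog its normalised counts were 164, 185, 169, 188 and 160 in controls and 237, 260, 284, 274 and 247 in HIGH libraries (log2 fold change 0.59 ± 0.07, edgeR adjusted p = 9.47e-05). At MED it was higher still, with a mean of 306 ± 26.2 (SD, n = 5, edgeR adjusted p = 2.33e-06). In minnow the controls held 176, 169, 164, 190 and 150 and the HIGH libraries 276, 224, 235, 345 and 262, all above the controls (0.66 ± 0.12, edgeR adjusted p = 0.00269), while MED, at 176 ± 30.6 (SD, n = 5), was at the level of controls. With selenomethionine in minnow the controls held 174, 134, 163 and 137 and the HIGH libraries 209.8, 171.9, 213.5 and 205.5, and the lowest HIGH library lay below the highest control (0.40 ± 0.08, edgeR adjusted p = 0.0263). That last call was lost in 6 of 14 alternatives, among them without control B or D and without HIGH A, C or D, with adjusted p up to 0.149. This member was also among the less steady in controls: its median CV over 39 tables was 18.2%, and it was the most variable member in 3 of them.

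s2f_0001348004, of rank 123, was called higher in 4 comparisons, 2 of them outside the benzo[a]pyrene tables. It was tied with s2f_0000201016, of rank 130, which was called higher in 4 and lower in 0. The tie went to the larger mean size of change, 0.53 against 0.52 on the log2 scale. Over all 39 comparisons the difference of s2f_0001348004 was positive in 15 and negative in 24, with a median of −0.06 on the log2 scale and a range of −1.35 to 0.94. Its benzo[a]pyrene values are a description with no test. In minnow embryos with benzo[a]pyrene the controls held normalised counts of 169, 157, 150, 155 and 170, and the HIGH libraries 342, 280, 340, 282 and 296. The groups were far apart, and HIGH A was at the level of HIGH C. MED held 316 ± 24.1 (SD, n = 5). In clawed frog with benzo[a]pyrene the controls ran from 264 to 329 and the HIGH libraries from 412 to 481, without overlap.

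With lead, s2f_0001348004 held 174 to 240 in minnow controls and 252 to 320 in HIGH libraries (log2 fold change 0.43 ± 0.09, edgeR adjusted p = 0.00723). In clawed frog it held 257 to 303 in controls and 317 to 363 in HIGH libraries (0.27 ± 0.06, edgeR adjusted p = 0.0184). The groups did not overlap in either species, though the clawed frog call was lost without HIGH 2 (edgeR adjusted p = 0.0519) or HIGH 3 (0.0534) and in a fit of the 2 groups alone (0.0794). In trout with selenomethionine it was instead called lower, with controls of 163 to 196 and HIGH libraries of 126, 130, 116 and 173. There the library at 173 lay within the controls (−0.38 ± 0.09, edgeR adjusted p = 0.0315), and the call was lost in 7 of 15 alternatives, among them without control A, C or D and without HIGH A, B or C, with adjusted p up to 0.230.

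**Figure D4:**
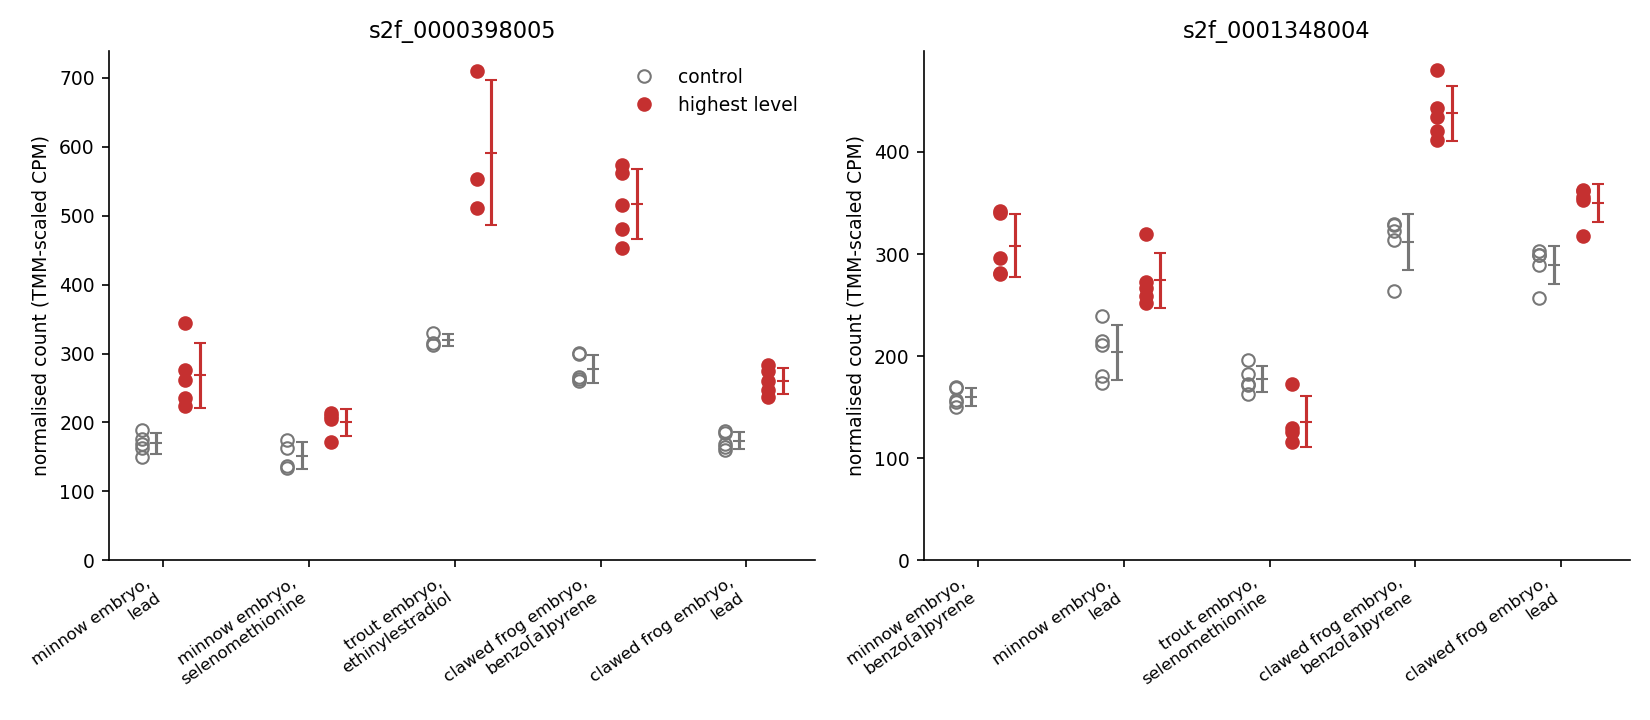
Normalised counts (TMM-scaled CPM) of 2 members called higher most often, in every control (open) and highest-level library (filled) of the comparisons in which they were called, with mean and SD beside the points. The second was tied with s2f_0000201016, which is not shown. The benzo[a]pyrene controls shown chose the members. s2f_0000398005 overlaps between groups only with selenomethionine in minnow, and of the comparisons shown s2f_0001348004 is lower at the highest level only with selenomethionine in trout.

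The members that fell were called once each in that direction. Over all 39 comparisons the difference of s2f_0000048031 was positive in 21 and negative in 18 (median 0.01 on the log2 scale). That of s2f_0001143003 was positive in 17 and negative in 22 (median −0.07). Both were lowest, without a call, in trout with fluoxetine at D125, at −1.38 (edgeR adjusted p = 0.136) and −0.82 (edgeR adjusted p = 0.190). s2f_0000048031, of rank 85, held normalised counts of 378, 372 and 411 in the trout ethinylestradiol controls and 145, 247 and 142 in the HIGH libraries, with no overlap (log2 fold change −1.12 ± 0.22, edgeR adjusted p = 0.0192). The call was lost without control A or B and without HIGH A or C (edgeR adjusted p of 0.0636 to 0.0970). Its control level in the trout benzo[a]pyrene table was 8023 ± 890 CPM (SD, n = 7), far above the level in the ethinylestradiol controls of the same species. s2f_0001143003, of rank 131, held 367, 319, 333, 412 and 403 in the clawed frog HBCD controls and 255.9, 216.5, 211.6, 250.5 and 180.7 in the HIGH libraries (−0.72 ± 0.12, edgeR adjusted p = 0.0145). In minnow with lead it rose, from 211 to 258 in controls to 335 to 394 in HIGH libraries (0.64 ± 0.10, edgeR adjusted p = 0.000741). Neither group pair overlapped. It was thus called in opposite directions in different species and chemicals.

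The share of counts taken by the members overlapped between control and highest level in 37 of 39 tables. Besides minnow embryo with lead, the exception was adult minnow liver with ethinylestradiol. There the 5 controls held 18.6%, 18.1%, 21.9%, 17.9% and 19.4% and the 4 HIGH libraries 12.9%, 10.1%, 8.63% and 13.4%, so every HIGH library was below every control. In the same table the TMM-scaled members had a median difference of 0.26 on the log2 scale, above 0 for 103 of 150. That direction rests on single libraries: without HIGH B the median was −0.08 with 42 above 0, and without HIGH D it was 0.58 with 122 above 0. A single identifier that is not a member took 31.8% to 63.5% of the counts in the HIGH libraries and at most 0.628% in controls. Outside the 10 identifiers that gained most, the members held 13.2% to 32.5% of the remaining counts in HIGH libraries and 18.1% to 22.0% in controls, which overlap. These 10 were picked for their gain in the same libraries, where they held 34.4% to 66.0% in HIGH and at most 0.838% in controls. Leaving them out therefore raises the members' HIGH share by construction. Why that share was lower in HIGH libraries was not tested. The median of all identifiers in this table was 0.08 on the log2 scale with TMM scaling, 0.10 with RLE size factors and 0.21 in DESeq2.

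**Figure D5:**
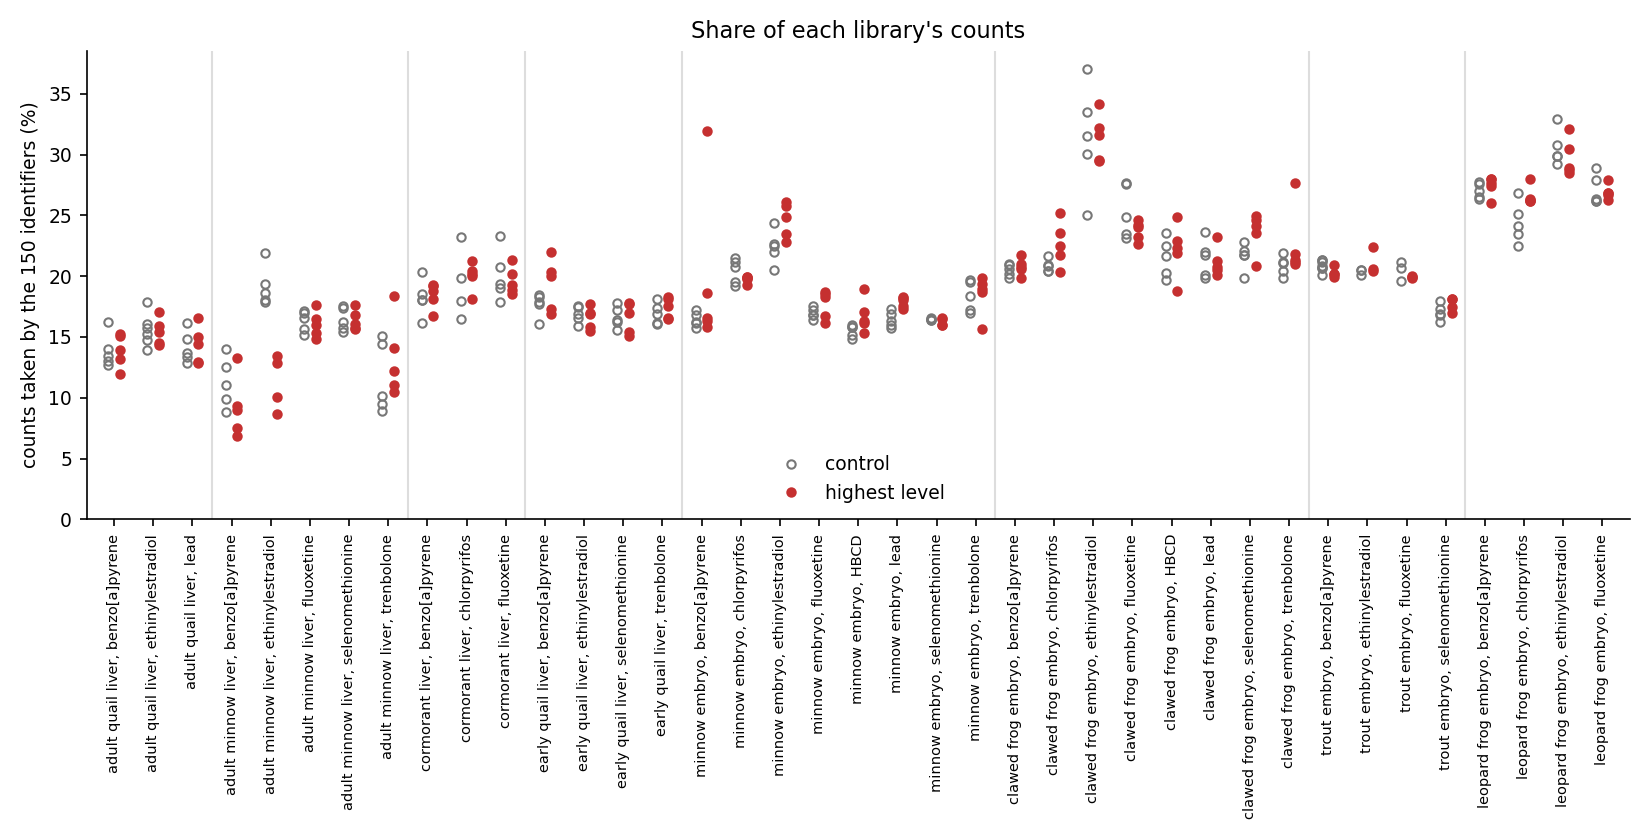
Share of counts taken by the 150 identifiers in each control library (open) and each highest-level library (filled) of the 39 tables, grouped by species and stage. The groups are apart only in adult minnow liver with ethinylestradiol (lower) and, narrowly, in minnow embryo with lead (higher), and HIGH A of the minnow embryo benzo[a]pyrene table lies at 31.9%.

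In 19 of all 39 comparisons, benzo[a]pyrene included, at least 120 of the 150 members had the same sign, mostly positive in 12 and mostly negative in 7, and the members' median passed 0.1 on the log2 scale in 19. The median of all identifiers was at most 0.08 in size with TMM scaling, and the share of all identifiers with the same sign was not counted. None of those 19 medians changed sign with RLE size factors, with TMM factors from identifiers that are not members, or in DESeq2. Each of these scalings also left the median of all identifiers near 0, at most 0.10, 0.08 and 0.21 in size in that order. Their agreement is therefore not an independent check of the members' direction. Of the tables whose shares did not overlap, the share went against the TMM median in adult minnow liver with ethinylestradiol and with it in minnow embryo lead. Leaving out a library did change the sign in places. The median became −0.06 in minnow embryo benzo[a]pyrene without HIGH A, and −0.08 in adult minnow liver ethinylestradiol without HIGH B. Such refits were run only for comparisons with a member called. The median size of a member's difference was below that of all identifiers in 24 of 39 comparisons, and the median standard error in 36.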

How the data were processed

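RNA was sequenced as paired-end reads on Illumina instruments, per the labels' protocols. The tables the authors deposited hold raw counts (whole numbers) for each s2f identifier, with a table for each species, stage and chemical. Aligner, counter and genome build: not given in the sources used here. Of 49 tables, 39 have labelled controls and were used, 10 were not used here, and 52 columns that matched no sample were left out. Members and lists were chosen with earlier results of these data known.

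Each table was fitted alone with all level groups together (in the minnow embryo ethinylestradiol and fluoxetine tables only CTRL, MED and HIGH): filterByExpr (minimum count 10, minimum total 15), TMM factors, and the quasi-likelihood test of edgeR 4.0.16 (with R 4.3.3 and limma 3.58.1), with Benjamini-Hochberg adjustment over the table and two-sided p-values. A standard error is the log2 fold change over the root of the quasi-likelihood F. DESeq2 1.42.0, run without filterByExpr, was an alternative, beside other scalings, no filter, a replicate block and left-out libraries. DESeq2's shares of all identifiers therefore include those with low counts. Its default filter on mean counts was left on and can leave such identifiers with no adjusted p. They could then not be called, though they count among all identifiers. The fit was also run on simulated counts, drawn independently for each identifier and with no outlying library. That run therefore says nothing about the stability of the member counts. Summaries used Python 3.11.15.

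Same-numbered controls and highest-level libraries deviated together in 4 minnow embryo tables, where every pair's correlation passed 0.1: chlorpyrifos (0.15 to 0.41), ethinylestradiol (0.30 to 0.51), fluoxetine (0.22 to 0.51) and lead (0.23 to 0.52). Pairs with different numbers were not compared, and the labels do not say what a number marks.

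Named by rule were ranks 1 to 5, 150 and 151, the leading member of each of the 8 tables, the smallest and largest ratio, and the 2 members called higher and 2 called lower in most comparisons, ties going to the larger change.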

Additional observations from a re-analysis of the deposited data

Results flagged for a closer look

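Of 74 control and highest-level groups of 4 to 10 libraries, tested on the members' share of counts, and 22 sets of normalised counts of named members from such groups, 7 held a library whose gap to its nearest neighbour was large for the range of the group (Dixon's criterion). Chance flags about 1 set in 20.

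The share of counts taken by the members was far from the rest in 4 HIGH libraries. It was 31.9% in minnow embryo benzo[a]pyrene HIGH A, where the other 4 lay at 15.8% to 18.6%. It was 15.6% in minnow embryo trenbolone HIGH E (others 18.7% to 19.9%) and 27.7% in clawed frog trenbolone HIGH 5 (others 21.0% to 21.8%). In leopard frog chlorpyrifos HIGH 4 it was 28.0%, with the others close together at 26.2% to 26.3%.

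Normalised counts of s2f_0001348004 stood apart in 3 clawed frog libraries. They were 264 in benzo[a]pyrene control 2 (others 314 to 329), 257 in lead control 1 (others 290 to 303) and 317 in lead HIGH 4 (others 353 to 363).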

How the results depend on the processing

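Of the 150 members, 128 were kept with the controls of the other tables, 135 with the total over shared identifiers, 142 with the lowest single library, and 148 to 150 when 1 control library was left out. Over the 31 tables together the member count was 31 and stayed within 1.5 times under RLE, TMM without members, no filter and a fit of 2 groups only, but it was 81 with a replicate block (1.28% of all identifiers called) and 150 in DESeq2 (0.849%). Percents in brackets below are of all identifiers called in the same fit, and in DESeq2 and without the filter these include low-count identifiers. DESeq2 called 34 members for minnow embryo lead (11%), 68 for leopard frog chlorpyrifos (1.85%), 19 for trout ethinylestradiol (1.19%) and 9 for minnow embryo selenomethionine (1.09%). It called 5 for clawed frog lead (2.20%), 4 for clawed frog selenomethionine (0.512%), 3 for adult minnow ethinylestradiol (1.2%), 2 for clawed frog HBCD (1.73%), and 1 each for cormorant benzo[a]pyrene (1.07%), minnow embryo HBCD (0.399%) and trout fluoxetine (0.204%). The replicate block gave 36 for minnow embryo lead (22.0%), 16 for trout ethinylestradiol (1.86%), 13 for minnow embryo selenomethionine (2.94%), 8 for clawed frog selenomethionine (0.552%), 2 for clawed frog HBCD (3.02%) and 0 for adult minnow ethinylestradiol (0.141%); it changed no other count by over 1.5 times. Of these tables only minnow embryo lead had every same-numbered pair correlated above 0.1. In minnow embryo selenomethionine the pairs ran from 0.07 to 0.18. Pairs with different numbers were not compared, so a pairing was neither shown nor excluded. No filter gave 9 for minnow embryo lead (7.97%), 24 for trout ethinylestradiol (3.1%) and 3 for trout fluoxetine (0.416%). A fit of the 2 groups alone gave 20 for trout ethinylestradiol (1.85%), 3 for minnow embryo benzo[a]pyrene (0.748%), 1 for trout selenomethionine (0.431%), and 0 for adult minnow ethinylestradiol (0.0702%) and minnow embryo selenomethionine (0.217%). The cause of these shifts was not tested. Leaving out 1 library gave 4 to 29 for minnow embryo lead (8.52% to 11.3%), 8 to 17 for clawed frog benzo[a]pyrene (16.2% to 19.7%), 1 to 10 for trout ethinylestradiol (0.317% to 1.75%) and 4 to 7 for minnow embryo benzo[a]pyrene (1.16% to 2.57%). It gave 1 to 4 for trout selenomethionine (0.543% to 1.08%), 1 to 3 for clawed frog lead (1.18% to 2.06%), and 0 to 1 for minnow embryo selenomethionine (0.226% to 0.730%) and adult minnow ethinylestradiol (0.0886% to 3.11%). Refits for comparisons with 1 to 9 members called were added after the data were seen. The log2 fold changes of the named responders kept their sign in every alternative run, and in 20 cases the adjusted p rose above the threshold.

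The median control share, with the total over shared identifiers, was 22.6% (cormorant), 30.4% (adult minnow), 19.6% (minnow embryo), 20.5% (adult quail), 23.0% (early-life quail), 30.6% (leopard frog), 25.3% (trout) and 24.3% (clawed frog). Without the leading member it was 15.5% (minnow embryo), 16.5% (early-life quail), 25.8% (leopard frog), 19.9% (trout) and 19.3% (clawed frog). With CPM by column total the members' median CV in the benzo[a]pyrene controls was 12.7% (cormorant), 19.8% (adult minnow), 7.04% (minnow embryo), 14.2% (adult quail), 12.5% (early-life quail), 5.34% (leopard frog), 4.90% (trout) and 5.06% (clawed frog). Leaving out 1 control, with TMM scaling, gave 11.2% to 34.2%, 13.0% to 15.5%, 5.99% to 9.89%, 14.2% to 17.6%, 7.29% to 8.90%, 4.85% to 6.83%, 6.88% to 8.31% and 5.39% to 6.10% in the same order.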
